A study of Arabidopsis thaliana with 12 samples.

Results

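The genes described here were the 9 *ATG8* genes of *Arabidopsis thaliana*, *ATG8A* to *ATG8I*, and the autophagy receptor gene *NBR1*. They were picked out by a list of locus identifiers that applies no expression threshold, although earlier results of these data were known when the list was drawn up, and they made up 10 of the 23069 genes in the RNA-seq table. The plants were 30 days old, and rosette leaves of the *kaku4-2* mutant, a single T-DNA insertion line with reduced *KAKU4* expression, were set against those of the Col-0 wild type (WT). KAKU4 is a putative component of the plant nuclear lamina. Each genotype had 3 libraries from independent biological samples, and the libraries numbered 1 to 3 under the name kaku4 were replicates of the *kaku4-2* allele. Expression was given as FPKM, a fragment count scaled by transcript length and by a measure of library size. Because whole leaves were sampled, a lower value from fewer cells of a type and one from less RNA per cell cannot be told apart.

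In autophagy, a double membrane encloses cytoplasm and carries it to the vacuole, which in leaves recycles nutrients during starvation and senescence. ATG8 is a ubiquitin-like protein that is attached to the lipid phosphatidylethanolamine on this membrane: the ATG4 protease trims its C-terminus to a glycine, ATG7 activates it as an E1-like enzyme, and ATG3 transfers it as an E2-like enzyme. NBR1 binds ubiquitinated cargo and ATG8 at the same time, and is itself degraded in the vacuole together with its cargo.

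The 9 *ATG8* genes differ in what follows the glycine. The last 30 coding bases before the stop codon are shown for this reason, as read from the RefSeq annotation of the TAIR10.1 assembly, 5′ to 3′ on the coding strand. Capitals mark the codon of the conserved glycine, taken as that of the last threonine-phenylalanine-glycine triplet in frame.
ATG8A: gagaacacttttGGAtctcttaccgttgct
ATG8B: gagaacacatttGGTggatctttctactgc
ATG8C: tacagtggagagaacacctttGGTttggtt
ATG8D: agtggtgagaacacgttcGGGatcttcttc
ATG8E: ggcgagaacacattcGGTgcttcttcaatc
ATG8F: ggagaaaacacatttGGAtttggatctcca
ATG8G: ggggaaaacacttttGGAtcgtcaatgact
ATG8H: atgtgctacagcaccgagaaaactttcGGC
ATG8I: atgtgctatagcagtgagaaaacctttGGT

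*ATG8H* and *ATG8I* ended with the glycine codon, so that 0 codons followed it, whereas 2 to 5 codons followed it in the other 7 genes. These windows lay at chr4:11656777-11656806 on the plus strand (*ATG8A*, AT4G21980), chr4:2328666-2328695 on the minus strand (*ATG8B*, AT4G04620), chr1:22934221-22934250 on the plus strand (*ATG8C*, AT1G62040), chr2:2083214-2083243 on the minus strand (*ATG8D*, AT2G05630), chr2:18625494-18625523 on the plus strand (*ATG8E*, AT2G45170), chr4:9306885-9306914 on the minus strand (*ATG8F*, AT4G16520), chr3:22416939-22416968 on the plus strand (*ATG8G*, AT3G60640), chr3:1955222-1955251 on the minus strand (*ATG8H*, AT3G06420) and chr3:5274078-5274107 on the minus strand (*ATG8I*, AT3G15580). *NBR1* (AT4G24690) lay at chr4:12741032-12744670 on the plus strand. The longest annotated coding sequences were 74.6% to 85.3% identical among *ATG8A* to *ATG8D* (6 pairs). The lowest of these values was for *ATG8A* and *ATG8D*, whose coding sequences had 414 and 495 bases, against at most 369 bases in the other genes. Identity was 76.2% to 78.1% among *ATG8E* to *ATG8G* (3 pairs) and 68.4% between *ATG8H* and *ATG8I*. Between *ATG8A* to *ATG8D* and *ATG8E* to *ATG8G*, it was 68.9% to 75.1% (12 pairs). Between *ATG8H* or *ATG8I* and the other 7 genes, identity was 56.9% to 69.1%. The longest stretch shared without a mismatch was 53 bases, between *ATG8A* and *ATG8B*, and at most 29 bases for any other pair. The read length given by the study is longer, so that no whole read fits within such a stretch. Whether reads placed with mismatches were split between *ATG8A* and *ATG8B* was not tested. The longest annotated transcripts of the *ATG8* genes were 712 bases (*ATG8H*) to 1259 bases (*ATG8F*), against 2742 bases for *NBR1*.

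The libraries were checked before use. *KAKU4* measured 0.402, 0.433 and 0.313 FPKM in *kaku4-2* replicates 1, 2 and 3, against 2.69, 3.61 and 2.51 FPKM in WT replicates 1, 2 and 3 (log2 fold change −2.64, adjusted p = 0.00933 by limma with Benjamini-Hochberg adjustment). The 4 markers of the rosette leaf summed to 20554 to 21675 FPKM in *kaku4-2* and 24105 to 31389 FPKM in WT. The 2 root markers in the table summed to 39.2 to 67.3 FPKM in *kaku4-2* and 29.6 to 46.6 FPKM in WT, nearly all of it *PYK10*, a root and seedling β-glucosidase, while the root iron transporter *IRT1* was at most 0.333 FPKM. The 3 flower markers and the 3 seed markers reached summed values of at most 2.92 and 0.212 FPKM in any library. One library stood apart: across genes, *kaku4-2* replicate 3 correlated with the other libraries at 0.895 to 0.936, against 0.963 to 0.981 among the other 5. It also had the smallest FPKM sum, 829805, with 1245640 and 1285630 in *kaku4-2* replicates 1 and 2, against 1298740, 1530890 and 1767460 in the WT replicates. The results are therefore given with and without it where they rest on it.

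None of the 9 *ATG8* genes was called as differentially expressed, nor was *NBR1*. The cutoff of the study asks for median FPKM that differ by 0.6 or more on the log2 scale and for an unadjusted P of at most 0.05. The study does not name the test behind its P, and limma was used here, so that these calls are not the study's own. By this cutoff, 0 of the 10 genes were upregulated and 0 were downregulated in *kaku4-2* (limma), beside 5.02% upregulated and 6.64% downregulated, or 11.7% in either direction, of the 20638 genes tested. The study itself reported more upregulated than downregulated genes. At an unadjusted P of at most 0.05 alone, 1 of 10 passed (*ATG8B*), against 15.0% of all genes. The lowest adjusted p among the 10 was 0.311 (limma, Benjamini-Hochberg over all genes tested), with 0.480% of all genes at or below 0.05. The median log2 fold change of the 10 genes was −0.44, beside −0.02 over all genes. All 9 *ATG8* genes had a log2 fold change below 0, although quantile normalization put *ATG8F*, *ATG8H* and *ATG8I* above 0. Leaving out single libraries changed the count of downregulated genes: without *kaku4-2* replicate 1, 2 of the 10 genes passed the cutoff (*ATG8B* and *ATG8D*), beside 11.8% of all genes, and without *kaku4-2* replicate 2, 3 of the 10 did (*ATG8B*, *ATG8C* and *ATG8D*), beside 12.9% of all genes.

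**Figure D1:**
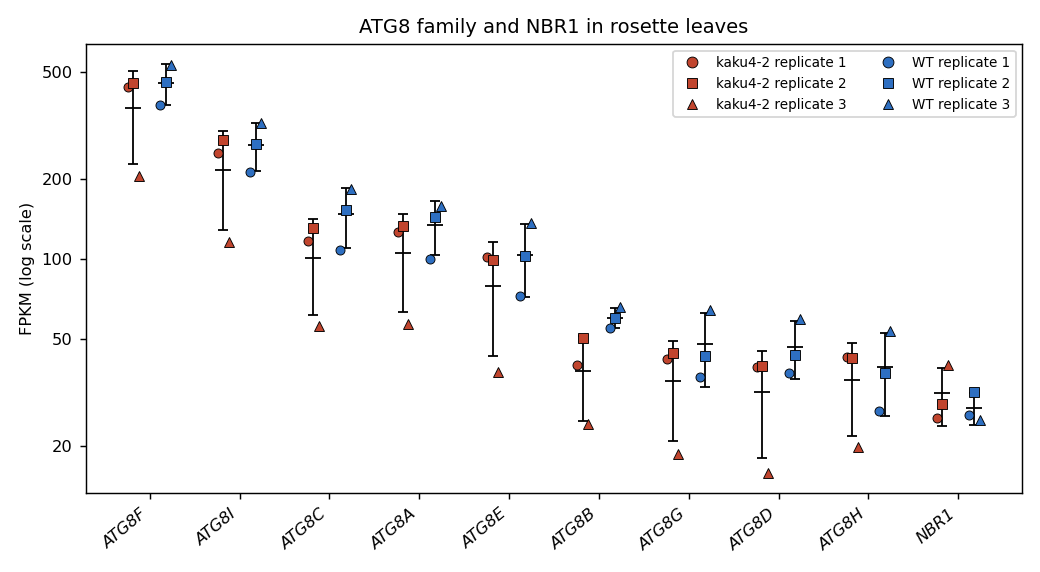
FPKM (log scale) of the 9 *ATG8* genes and *NBR1* in each library, with *kaku4-2* in red to the left of WT in blue, symbols for the replicate, and bars for the mean ± SD (n = 3 each). In all 9 *ATG8* genes the lowest point is *kaku4-2* replicate 3 and the highest is WT replicate 3, while for *NBR1* the highest point is *kaku4-2* replicate 3.

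*ATG8F* and *ATG8I* were the most abundant members in every library. *ATG8F* measured 441, 456 and 205 FPKM in *kaku4-2* replicates 1, 2 and 3, against 377, 462 and 534 FPKM in WT replicates 1, 2 and 3 (log2 fold change −0.39, SE 0.35). *ATG8I*, one of the members made without residues after the glycine, measured 249, 279 and 116 FPKM in *kaku4-2*, against 213, 269 and 323 FPKM in WT (−0.40, SE 0.35). In both genes the first 2 *kaku4-2* libraries lay within the WT range and *kaku4-2* replicate 3 lay below it. The ratio of *ATG8F* to *ATG8I* stayed between 1.64 and 1.77 in all 6 libraries.

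*ATG8C*, *ATG8A* and *ATG8E* formed a middle group. *ATG8C* measured 117, 131 and 56.2 FPKM in *kaku4-2*, against 108, 152 and 182 FPKM in WT (−0.60, SE 0.35). *ATG8A* measured 127, 133 and 57.1 FPKM in *kaku4-2*, against 100.1, 144 and 158 FPKM in WT (−0.41, SE 0.35). *ATG8E* measured 102, 98.9 and 37.7 FPKM in *kaku4-2*, against 72.8, 103 and 136 FPKM in WT (−0.47, SE 0.38). The genotypes overlapped in each of these genes, with *kaku4-2* replicate 3 again the lowest library. *ATG8C* was above *ATG8A* in all 3 WT libraries and below it in all 3 *kaku4-2* libraries, a difference in order that was not tested.

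*ATG8B* was the member furthest from WT. It measured 40.1, 50.7 and 24.0 FPKM in *kaku4-2* (38.3 ± 13.4, SD, n = 3), against 55.3, 59.9 and 66.0 FPKM in WT (60.4 ± 5.34, SD, n = 3). All 3 *kaku4-2* values lay below all 3 WT values, which was so for 1 of the 10 genes and for 15.0% of all genes tested, whereas all *kaku4-2* values lay above all WT values in 0 of the 10 genes and in 7.92% of all genes. Without WT replicate 1, the lowest WT library of every *ATG8* gene, 6 of the 10 genes were lower in *kaku4-2* without overlap (*ATG8A* to *ATG8F*), beside 26.4% of all genes. The log2 fold change was −0.72 (SE 0.30, 95% interval −1.37 to −0.06), with an unadjusted P of 0.0339 and an adjusted p of 0.311, 0.177 to 0.834 over the alternatives tried (limma, Benjamini-Hochberg). The log2 ratio of its medians, −0.58, fell just short of the cutoff. Without *kaku4-2* replicate 3, the log2 fold change was −0.42.

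*ATG8G*, *ATG8D* and *ATG8H* were the least abundant *ATG8* genes by their WT means, and their genotypes overlapped. *ATG8G* measured 42.2, 44.4 and 18.7 FPKM in *kaku4-2*, against 36.1, 43.4 and 64.7 FPKM in WT (−0.51, SE 0.36). *ATG8D* measured 39.6, 39.7 and 15.8 FPKM in *kaku4-2*, against 37.5, 43.6 and 59.9 FPKM in WT (−0.66, SE 0.36). *ATG8H*, the other member that ends at the glycine, measured 43.2, 42.6 and 19.7 FPKM in *kaku4-2*, against 27.1, 37.4 and 53.9 FPKM in WT (−0.20, SE 0.36). *ATG8H* thus had the smallest mean difference of the family, and *ATG8D*, which was above it in all 3 WT libraries, was below it in all 3 *kaku4-2* libraries.

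*NBR1*, the receptor, did not share this pattern across libraries. It measured 25.4, 28.8 and 40.1 FPKM in *kaku4-2* (31.4 ± 7.72, SD, n = 3), against 26.0, 31.9 and 25.0 FPKM in WT (27.6 ± 3.75, SD, n = 3). The log2 fold change was 0.17 (SE 0.28, 95% interval −0.43 to 0.77) with an adjusted p of 0.755 (limma, Benjamini-Hochberg). The genotypes overlapped, and *kaku4-2* replicate 3 was the highest library. Relative to every 100 FPKM of the summed *ATG8* genes, *NBR1* had 2.12, 2.26 and 7.29 FPKM in *kaku4-2*, against 2.53, 2.43 and 1.58 FPKM in WT. *NBR1* was the lowest of the 10 genes in 5 libraries and the fifth highest in *kaku4-2* replicate 3.

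The spread between replicates was shared by the whole *ATG8* family. The summed *ATG8* level was 1201, 1275 and 550.5 FPKM in *kaku4-2* (1009 ± 399, SD, n = 3), against 1026, 1313 and 1578 FPKM in WT (1306 ± 276, SD, n = 3). In all 9 genes *kaku4-2* replicate 3 was the lowest library, WT replicate 3 the highest and WT replicate 1 the lowest of the WT libraries. The same held for the FPKM sums of the libraries. In FPKM, *kaku4-2* replicates 1 and 2 lay within the WT range in 8 of the 9 genes, with *ATG8B* the exception. As a share of the FPKM sum of the library, the *ATG8* genes held 0.0964, 0.0992 and 0.0663% in *kaku4-2*, against 0.0790, 0.0858 and 0.0893% in WT. By this share, *kaku4-2* replicates 1 and 2 lay above all WT libraries and *kaku4-2* replicate 3 below them. An estimated 282 (*ATG8H*) to 11183 (*ATG8F*) fragments stood behind single values, which gives an estimated counting error of at most 5.95% and leaves out the noise of preparation and quantification. These numbers are approximate, since 19.2% to 21.5% of the low values behind the estimate lay near whole fragment numbers.

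In *kaku4-2* replicate 3, levels differed by transcript length, and the *ATG8* genes lay with the short transcripts. On the log2(FPKM + 0.1) scale, this library was below the mean of *kaku4-2* replicates 1 and 2 by 0.90 (*ATG8B*) to 1.41 (*ATG8E*) in the 9 *ATG8* genes, and *NBR1* was above it by 0.57. Over all genes, sorted by length into 20 bins, the median of the same difference ran from −1.04 in the shortest bin, with a median length of 569 bases, to 1.24 in the longest, with a median length of 4330 bases. In the bins that hold the *ATG8* genes, the median was −1.03 to −0.57, and all 9 *ATG8* genes lay below the median of their own bin, 6 of them below its interquartile range. *NBR1* lay within the interquartile range of its bin, whose median was 1.01. The part of this length trend in the differences between genotypes was not tested apart from the fits that follow.

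**Figure D2:**
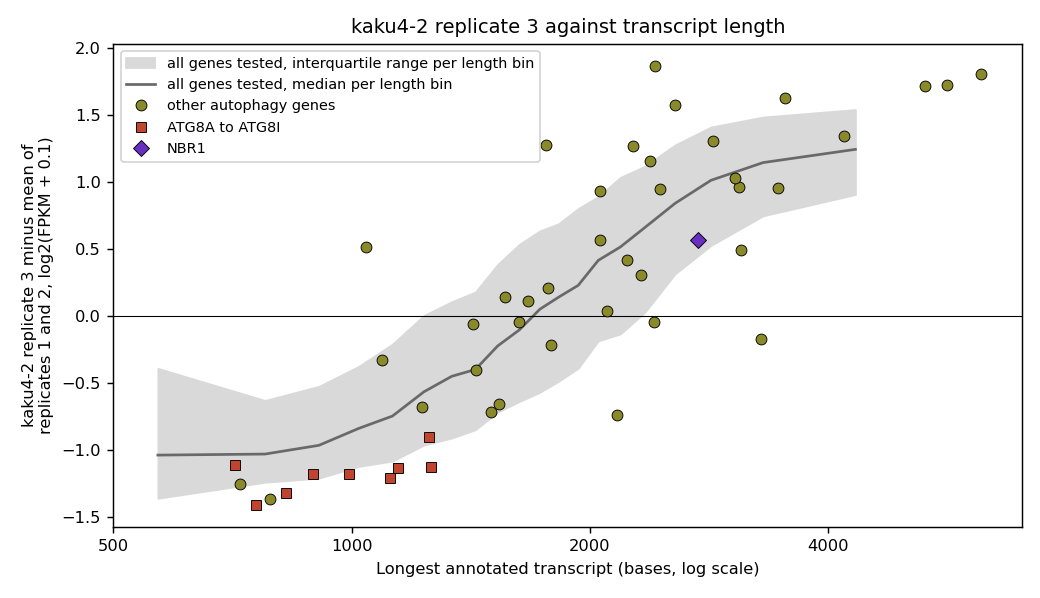
Difference between *kaku4-2* replicate 3 and the average of the other *kaku4-2* libraries, in log2(FPKM + 0.1), against the length of the longest annotated transcript (bases, log scale). The line and band are the median and interquartile range of all genes tested in 20 length bins; red squares are the 9 *ATG8* genes, between −1.41 and −0.90, the purple diamond is *NBR1*, at 0.57, and olive circles are 38 other autophagy genes.

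The log2 fold changes of 8 of the 9 *ATG8* genes were smaller in size without this library or without the trend, and that of *ATG8H* was larger in size without the trend. Without *kaku4-2* replicate 3, the log2 fold changes of the *ATG8* genes lay between −0.42 (*ATG8B*) and 0.18 (*ATG8H*), and that of *NBR1* was −0.02, with a median of −0.02 for the 10 genes and −0.05 for all genes. With a smooth trend on transcript length removed from each library, the *ATG8* genes lay between −0.46 (*ATG8B*) and 0.37 (*ATG8H*), and *NBR1* was at −0.19. *ATG8B*, *ATG8C*, *ATG8D*, *ATG8F* and *ATG8G* had log2 fold changes below 0 in each of these fits, with *ATG8B* the lowest. None of the 10 genes was called in them, where 4.65% (without the library) and 6.88% (trend removed) of all genes were upregulated and 6.66% and 5.58% were downregulated. For *ATG8H*, *ATG8A*, *ATG8E*, *ATG8I* and *NBR1*, removing the trend turned the sign. *ATG8H* was then higher in *kaku4-2* without overlap (log2 fold change 0.37, SE 0.18, adjusted p 0.318 by limma with Benjamini-Hochberg) and *ATG8B* lower without overlap, each 1 of the 10 genes, beside 11.0% of all genes higher and 13.0% lower.

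**Figure D3:**
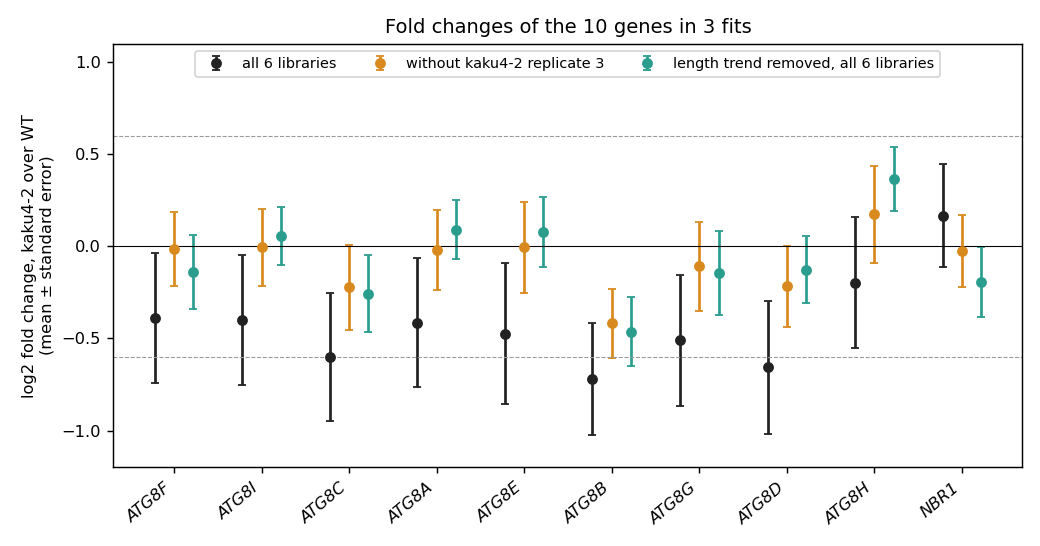
Log2 fold change of *kaku4-2* over WT for each gene (mean ± standard error) with all 6 libraries (black), without *kaku4-2* replicate 3 (orange) and with the length trend removed (teal); dashed lines mark the fold cutoff of 0.6. With all libraries the 9 *ATG8* genes lie between −0.72 and −0.20, and without *kaku4-2* replicate 3 between −0.42 and 0.18.

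The make-up of the *ATG8* transcript pool was compared as each gene's share of the summed *ATG8* FPKM, which cancels a change common to the family. It does not cancel a change that differs by transcript length within the family. In *kaku4-2* replicate 3, the medians of the length bins that hold the *ATG8* genes ran from −1.03 to −0.57. These shares sum to 100%, so that they are not independent of each other, and with 3 against 3 libraries the exact two-sided permutation test cannot go below p = 0.1. *ATG8F* held 36.6 ± 0.749% in *kaku4-2* and 35.2 ± 1.45% in WT (SD, n = 3 each). *ATG8I* held 20.8, 21.8 and 21.1% in *kaku4-2*, against 20.7, 20.5 and 20.5% in WT, with all *kaku4-2* values above all WT values by a small margin. *ATG8C* held 9.71, 10.3 and 10.2% in *kaku4-2*, against 10.5, 11.6 and 11.6% in WT, and all *kaku4-2* values were lower. *ATG8D* was likewise lower without overlap, by a small margin, with 3.30, 3.11 and 2.87% in *kaku4-2* and 3.65, 3.32 and 3.80% in WT. The shares of the other genes overlapped between the genotypes. Among them, *ATG8B* held 3.89 ± 0.521% in *kaku4-2* and 4.71 ± 0.619% in WT (SD, n = 3 each). *ATG8H* held 3.51 ± 0.146% in *kaku4-2* and 2.97 ± 0.400% in WT (SD, n = 3 each). How often such shares differ without overlap in other gene families was not computed. In FPKM, 22.9% of all genes tested did not overlap between the genotypes, in either direction.

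Grouped by coding sequence, a grouping added after the values had been seen, *ATG8A* to *ATG8D* together held 27.5 ± 0.542% of the pool in *kaku4-2* and 29.8 ± 0.586% in WT. *ATG8E* to *ATG8G* held 47.7 ± 0.908% in *kaku4-2* and 46.7 ± 0.538% in WT. *ATG8H* and *ATG8I*, which end at the glycine, held 24.8 ± 0.413% in *kaku4-2* and 23.5 ± 0.322% in WT (SD, n = 3 each). The first and the last of these groups did not overlap between the genotypes, while the middle group overlapped. The shares of *ATG8C* and *ATG8D* in the first group and of *ATG8I* in the last had already been seen not to overlap. Shares of the same pool also depend on each other, so that the first and the last group are not separate results. Their exact permutation p of 0.1, the smallest possible, cannot serve as a test of groups formed after the values had been seen. In *kaku4-2* replicate 3 the share of *ATG8A* to *ATG8D* was 27.8%, with 26.9% and 27.8% in *kaku4-2* replicates 1 and 2.

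**Figure D4:**
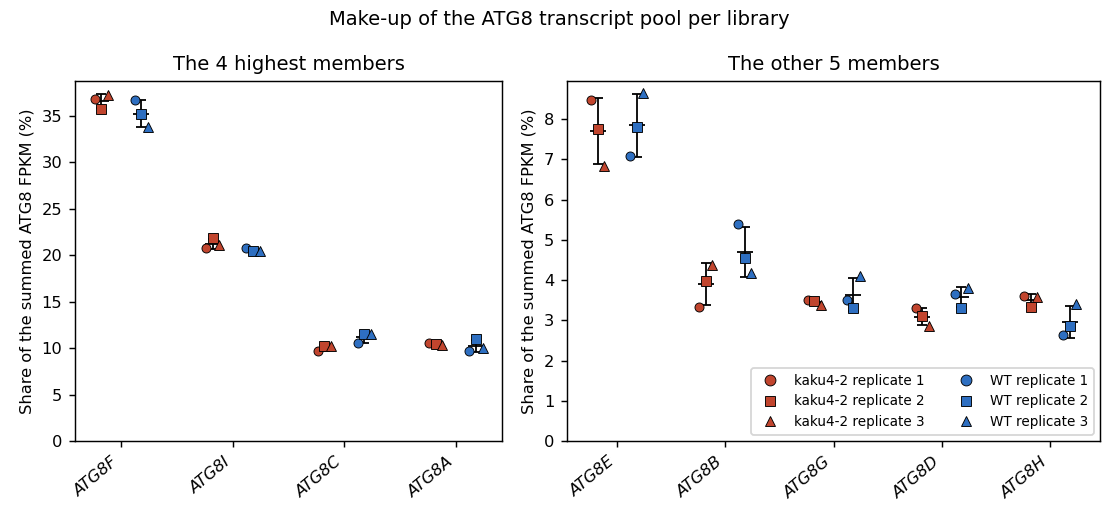
Share of each *ATG8* gene in the summed *ATG8* FPKM of its library (%), with *kaku4-2* in red to the left of WT in blue and bars for the mean ± SD (n = 3 each). *ATG8E* in *kaku4-2* replicate 3 has the lowest share of that gene in any library, 6.84%. *ATG8C* is lower, *ATG8D* lower by a small margin and *ATG8I* slightly higher in all *kaku4-2* libraries than in all WT libraries.

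The order of the 10 genes by mean FPKM in WT was *ATG8F*, *ATG8I*, *ATG8C*, *ATG8A*, *ATG8E*, *ATG8B*, *ATG8G*, *ATG8D*, *ATG8H* and *NBR1*. *ATG8F* was first and *ATG8I* second in all 6 libraries, and *ATG8I* exceeded *ATG8C* by 1.77 to 2.14 times. *ATG8A* exceeded *ATG8E* by 1.16 to 1.52 times and *ATG8E* exceeded *ATG8B* by 1.32 to 2.54 times. Neighbours from *ATG8B* to *ATG8H* were close, and their values overlapped across libraries of each genotype. FPKM is scaled by transcript length, but in *kaku4-2* replicate 3 levels still differed by length, so that the place of *NBR1*, which has a longer transcript than the *ATG8* genes, is less certain there.

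The other genes of the pathway were taken from 5 lists of 39 autophagy genes, of which 38 were tested (*ATG18E* had no row in the table). Of the 38, 1 was upregulated and 1 was downregulated by the cutoff, beside 5.02% and 6.64% of all genes. Of the 38, 25 had a log2 fold change above 0, and the median log2 fold change was 0.30, beside −0.02 over all genes. At an adjusted p of at most 0.05, 0 were called in either direction (limma, Benjamini-Hochberg), and 2 had an unadjusted P of at most 0.05, beside 15.0% of all genes. Their transcripts were long, with a median of 2196.5 bases.

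Of the 9 genes for ATG8 and ATG12 conjugation, 1 was upregulated, 0 were downregulated and 4 were above 0 (median log2 fold change −0.04). This was *ATG7*, the activating enzyme of ATG8, with 1.76, 1.62 and 3.89 FPKM in *kaku4-2*, against 1.00, 1.34 and 0.782 FPKM in WT. Its log2 fold change was 1.07 (SE 0.44, unadjusted P 0.0302) with an adjusted p of 0.302, 0.209 to 0.834 over the alternatives tried (limma, Benjamini-Hochberg). The genotypes did not overlap, but *kaku4-2* replicate 3 was the highest library, and without it the log2 fold change was 0.68 and *ATG7* was no longer called. The call was also lost without WT replicate 1 (log2 fold change 1.05) and without WT replicate 3 (0.90). The most abundant gene of the list was *ATG12A*, one of the genes of the ubiquitin-like ATG12, which measured 66.0, 61.1 and 26.5 FPKM in *kaku4-2*, against 52.7, 68.5 and 89.1 FPKM in WT (log2 fold change −0.53, SE 0.36). Its longest transcript had 723 bases, and as in the *ATG8* genes *kaku4-2* replicate 3 was the lowest library and WT replicate 3 the highest.

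Of the 6 genes for other cargo receptors that bind ATG8, 0 were upregulated, 1 was downregulated and 3 were above 0 (median −0.01). *TSPO*, a stress-induced membrane protein that carries an aquaporin to autophagy, measured 1.92, 1.13 and 2.15 FPKM in *kaku4-2*, against 3.68, 2.48 and 4.81 FPKM in WT. Its log2 fold change was −1.03 (SE 0.40, unadjusted P 0.0214, adjusted p 0.287 by limma with Benjamini-Hochberg, 0.140 to 0.834 over the alternatives), and all *kaku4-2* values lay below all WT values. The call was lost with the length trend removed (−0.61) and without WT replicate 1, WT replicate 3 or *kaku4-2* replicate 2. The most abundant gene of the list, *RPN10*, a ubiquitin receptor of the proteasome that also serves as its autophagy receptor, measured 59.2, 60.9 and 64.9 FPKM in *kaku4-2*, against 60.9, 54.0 and 57.4 FPKM in WT (log2 fold change 0.10, SE 0.25).

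In the 3 lists that act upstream of ATG8, 0 genes were called, beside 11.7% of all genes in either direction. The ATG1 kinase complex, which starts autophagy, had 6 of 8 genes above 0 (median log2 fold change 0.40). Its most abundant gene, *ATG101*, measured 14.9, 16.2 and 12.4 FPKM in *kaku4-2*, against 13.9, 14.7 and 14.9 FPKM in WT. The phosphatidylinositol 3-kinase complex, which makes the lipid that recruits later factors, had 5 of 6 genes above 0 (median 0.56). Its most abundant gene, *ATG6*, measured 7.64, 6.90 and 7.43 FPKM in *kaku4-2*, against 8.34, 8.70 and 6.19 FPKM in WT. The ATG9, ATG2 and ATG18 group, which supplies membrane, had 7 of 9 genes above 0 (median 0.51). Its most abundant gene, *ATG18A*, measured 9.20, 11.4 and 11.8 FPKM in *kaku4-2*, against 9.62, 16.3 and 13.8 FPKM in WT. The genotypes overlapped in *ATG101*, *ATG6* and *ATG18A*.

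The positive medians of these lists were smaller without *kaku4-2* replicate 3 and with the length trend removed, though still above 0. Of the 23 list genes with transcripts over 2000 bases, 3 were lower in this library than in the mean of *kaku4-2* replicates 1 and 2, whereas 4 of the 5 list genes with transcripts of at most 1300 bases were. The part of transcript length in these medians was not tested further than in the fits without this library or without the trend. The differences on the log2(FPKM + 0.1) scale reached 1.86 in *ATG1A*, a kinase subunit gene, and −1.36 in *ATG12B*. Without this library the ATG1 kinase complex had 6 of 8 genes above 0 (median log2 fold change 0.11), the phosphatidylinositol 3-kinase complex 5 of 6 (0.20) and the ATG9, ATG2 and ATG18 group 5 of 9 (0.07), and *ATG18C* passed the cutoff upward, beside 4.65% of all genes. The median of the 38 genes was then 0.11, and with the length trend removed it was 0.10. In the fit with the trend removed, the ATG1 kinase complex had 7 of 8 genes above 0 (median 0.09). The phosphatidylinositol 3-kinase complex then had 4 of 6 (0.30) and the ATG9, ATG2 and ATG18 group 6 of 9 (0.16). With the trend removed, 3 list genes were upregulated, *ATG7*, *ATG3* and *ATG18C*, beside 6.88% of all genes. *ATG3*, the E2-like enzyme of ATG8, had 22.8, 20.9 and 24.0 FPKM in *kaku4-2*, against 22.2, 12.2 and 10.5 FPKM in WT, and is named here after its values had been seen, as is *ATG18C*, with 5.37, 4.79 and 4.90 FPKM in *kaku4-2*, against 4.15, 2.90 and 2.55 FPKM in WT.

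**Figure D5:**
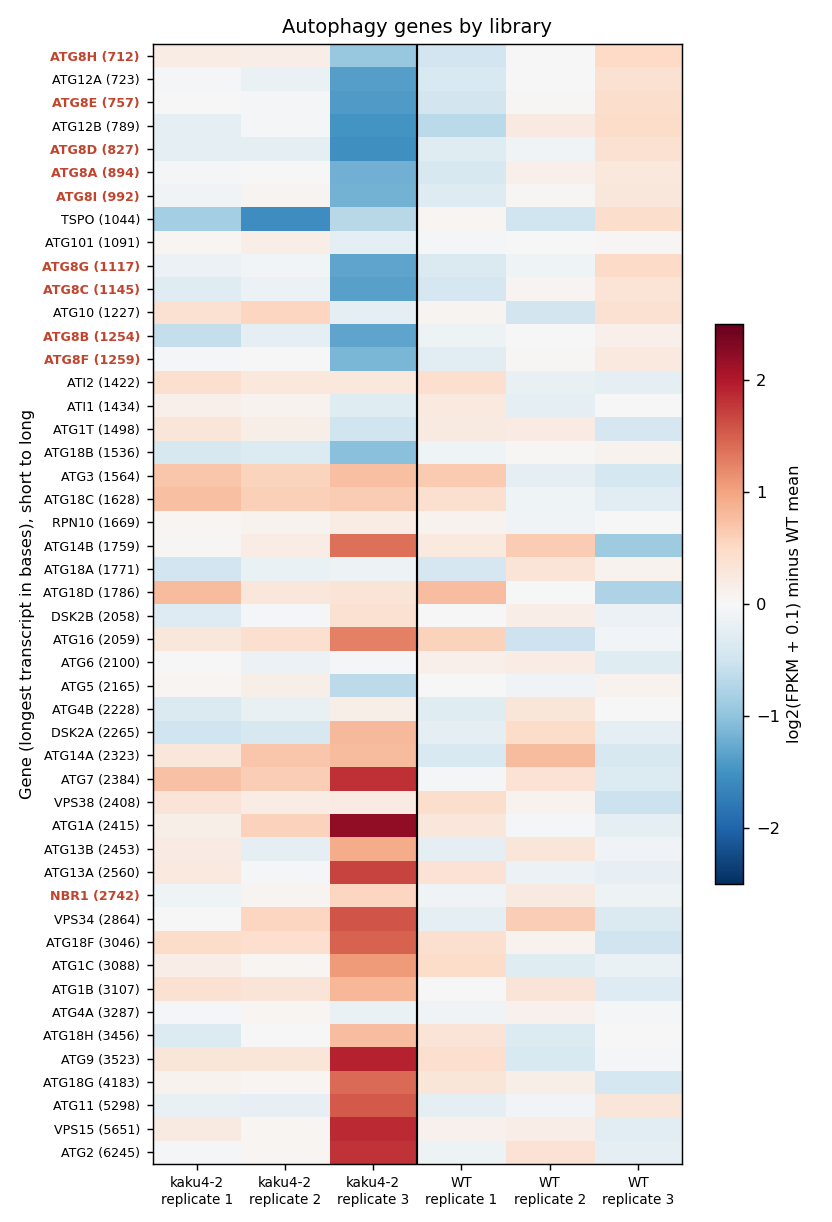
Log2(FPKM + 0.1) of the 10 genes (red names) and the 38 other autophagy genes in each library, minus the mean of the WT libraries, with genes ordered from short to long transcripts (bases in parentheses). In the column of *kaku4-2* replicate 3, *ATG8* genes and other short genes are mostly blue (lower) and long genes mostly red (higher). Against the mean of *kaku4-2* replicates 1 and 2, which is not the scale drawn, this library was higher by 1.86 in *ATG1A*.

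Genes with the most similar pattern were sought among 16486 genes with a mean of at least 1 FPKM, as the smallest root mean square difference in centred log2(FPKM + 0.1) over the 6 libraries. For the summed *ATG8* level these were AT2G36320 (0.0156), *BBX28* (0.0225), *PSAN*, a photosystem I subunit (0.0257), *DER2.1* (0.0287) and AT2G22425 (0.0311). For *NBR1* they were AT3G19000 (0.0305), AT1G49750 (0.0367), AT5G52380 (0.0445), AT3G61870 (0.0464) and *WR3* (0.0533). In this order, the longest annotated transcripts of the genes most like *NBR1* had 1454, 2042, 1065, 1327 and 1099 bases, against 2742 bases for *NBR1*. Those of the genes most like the summed *ATG8* level had 1774, 1427, 1018, 1235 and 896 bases, against 712 to 1259 bases for the *ATG8* genes. AT3G19000 had 5.32, 6.15 and 8.91 FPKM in *kaku4-2*, against 5.38, 6.68 and 5.25 FPKM in WT. Its highest library, *kaku4-2* replicate 3, is that of *NBR1* by the way the gene was chosen.

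Some members overlap a neighbour on the opposite strand, and whether the counting used strand is not given in the sources used here. *ATG8A* overlapped AT4G21990 by 27 bases, *ATG8I* overlapped AT3G15578 by 183 bases and *NBR1* overlapped AT4G24700 by 101 bases. AT4G24700 measured 50.3, 47.3 and 28.2 FPKM in *kaku4-2*, against 70.0, 70.6 and 93.2 FPKM in WT, an order of libraries unlike that of *NBR1*. AT4G21990 measured 41.5, 35.6 and 49.0 FPKM in *kaku4-2*, against 33.7, 17.1 and 17.0 FPKM in WT. AT3G15578 had no row in the table.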

How the data were processed

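RNA from rosette leaves of 3 *kaku4-2* and 3 WT samples was sequenced as paired ends. Reads were mapped by the authors to the TAIR10 genome (TopHat2 2.0.9), and the deposited FPKM values of 23069 genes came from Cufflinks. Bowtie2 is also named in the submitters' processing notes. The Cufflinks version, the annotation and the use of strand are not given in the sources used here. The ChIP-seq libraries were not analysed here.

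Genotype and replicate were taken from the sample titles. The 20638 genes whose FPKM averaged 0.1 or more were analysed as log2(FPKM + 0.1) in limma 3.58.1 (R 4.3.3). The prior variance followed mean expression, genotype was the sole term, and tests were two-sided. P-values were adjusted by Benjamini-Hochberg over all genes tested. The fold changes are on the log2(FPKM + 0.1) scale, which understates changes of low genes. The cutoff of the study was applied to the log2 ratio of median FPKM and the unadjusted limma P. The fit was tested on simulated data. FPKM hold no counts, so that fragments were estimated from the spacing of low values.

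All 10 members were named, with every list gene called by the cutoff and the most abundant gene of each list. Members and lists were chosen with earlier results of these data known. Names, lengths and sequences came from RefSeq (TAIR10.1), in which 22881 loci were found, and were read with Biopython 1.88. Alternatives were another pseudocount, filter, scaling, prior variance or call rule, a replicate block, removal of a length trend, and each library left out in turn.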

Additional observations from a re-analysis of the deposited data

How the results depend on the processing

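The count of upregulated members stayed at 0 under every alternative tried. The count of downregulated members was 0 except with the fold taken from mean log2 values, which gave 1 (*ATG8B*), beside 9.56% of all genes, and ranged from 0 to 3 with 1 library left out, beside 3.26% to 12.9% of all genes. For the list genes, the share of all genes called in the same setting is given in parentheses. The count of upregulated list genes, 1 with all libraries (5.02%), became 2 with median ratio scaling (5.84%) and 2 with quantile normalization (5.32%). It became 3 with the length trend removed (6.88%) and 0 at an adjusted p of 0.05 (0.242%). With 1 library left out, it ranged from 0 to 3 (2.64% to 7.33%). The count of downregulated list genes, also 1 (6.64%), became 0 with the length trend removed (5.58%) and 0 at an adjusted p of 0.05 (0.237%). With 1 library left out, it ranged from 0 to 1 (3.26% to 12.9%). The share of upregulated genes among all calls was 43.1%, and 55.2% with the length trend removed. Replicate numbers did not pair the libraries (correlations of same-numbered deviations −0.159, −0.0251 and −0.408), and with a replicate block 0 list genes were upregulated, and over all genes 706 were upregulated and 1017 downregulated, against 1037 and 1370 without it.

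Log2 fold changes turned sign with the length trend removed in *ATG8A* (0.0916), *ATG8E* (0.0787), *ATG8H* (0.37), *ATG8I* (0.0557) and *NBR1* (−0.19), and with quantile normalization in *ATG8F* (0.0856), *ATG8H* (0.0416) and *ATG8I* (0.0423). With 1 library left out, *ATG8H* ranged from −0.44 to 0.18 and turned when either WT replicate 3 (0.056) or *kaku4-2* replicate 3 was missing, and *NBR1* ranged from −0.0229, with *kaku4-2* replicate 3 missing, to 0.31. With the length trend removed and *kaku4-2* replicate 3 left out together, a setting chosen after seeing the data, *ATG8A* (0.21), *ATG8D* (0.0212), *ATG8E* (0.25), *ATG8F* (0.0829), *ATG8G* (0.0454), *ATG8H* (0.43), *ATG8I* (0.20) and *NBR1* (−0.077) turned sign, while *ATG8B* (−0.32) and *ATG8C* (−0.081) stayed below 0. The cause of these changes was not tested. With 3 libraries per genotype, of which 1 stood apart, the 95% interval of *ATG8E*, for one, ran from −1.30 to 0.35 on the log2 scale.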
